A study of Mus musculus with 6 samples.

Results

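The genes described here are 10 markers of cellular senescence and of the factors that damaged cells secrete: Cdkn2a, Cdkn2b, Lmnb1, Glb1, Gdf15, Il6, Ccl2, Cxcl1, Mmp2 and Timp1. They were taken by symbol from an FPKM matrix (fragments per kilobase of exon per 1000000 mapped fragments) of 55487 genes, and all 10 were present. The matrix holds 6 RNA-seq libraries of kidney endothelial cells, each from 1 mouse. Cells were captured from collagenase-digested whole kidneys on magnetic beads against CD31, an endothelial surface protein. The 3 control mice were labelled as wild-type littermates. The 3 I-PpoI mice carried VE-cadherin Cre, a recombinase driven by an endothelial promoter, with a STOP-cassette allele of I-PpoI, an endonuclease that cuts DNA at a small set of genomic sites. That allele was labelled ROSA26-STOP-I-PpoI for mouse 1, ROSA27-STOP-I-PpoI for mouse 2 and ROSA28-STOP-I-PpoI for mouse 3. The labels do not say whether these numbers stand for different alleles. The labels name no Cre-only control and no control on another diet. All 6 mice were moved from chow to a high-fat diet with 60% of calories from fat at 8 weeks of age and were sampled 4 weeks later. All 6 libraries carried the same batch label.

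Senescence is a lasting arrest of the cell cycle that can follow DNA damage. It is usually recognised by several marks together: transcription of the cyclin-dependent kinase inhibitors at the Cdkn2a and Cdkn2b locus, loss of the nuclear lamina protein lamin B1 (Lmnb1), raised lysosomal beta-galactosidase (Glb1), and secretion of cytokines, chemokines, matrix proteases and growth factors known as the senescence-associated secretory phenotype. In endothelium these secreted factors attract leukocytes and remodel the basement membrane.

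The libraries differed in depth and strand. Control libraries held 14081222 to 16954480 fragments, I-PpoI mouse 3 held 13324303, and I-PpoI mice 1 and 2 held 1590957 and 834149. In I-PpoI mice 1 and 2, 68.2% and 70.6% of mitochondrial fragments were assigned to genes of the minus strand, against under 0.1% in each of the other libraries, and gene models annotated as antisense took 14.7% and 10.02% of fragments, against 0.1195% to 0.2249% elsewhere. A gene in these libraries can therefore hold fragments of its opposite-strand neighbour and lose its own. Cdkn2a, Cdkn2b, Gdf15, Lmnb1, Glb1 and Cxcl1 are called strand-clear below, since the 5 kb around each of their exons held no gene model on the other strand. The 4 remaining genes had such a neighbour. By Ddx3y, a Y-linked gene, and Xist, which is transcribed from the inactive X, the controls and I-PpoI mouse 1 were male and I-PpoI mice 2 and 3 female, so genotype and sex were only partly separable. Over all genes tested, deposited FPKM was shifted by a median log2 fold change of -0.65 in I-PpoI, and each library was therefore divided by its median ratio to the mean profile, giving scaled FPKM with a median shift of 0.015. All 12 endothelial markers were detected in every library, as were all the proximal tubule, distal tubule, mural, podocyte and macrophage markers, so detection alone does not tell the cell types apart. Of the 12, 11 had a scaled log2 fold change below 0 in I-PpoI, with a median of -0.74, and 0 passed the test.

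In the comparison of I-PpoI with control, which addresses how endothelial DNA breaks change the transcriptome of kidney endothelium under a high-fat diet, none of the 10 genes passed the test. Gdf15 and Mmp2 had the largest separation: after scaling, Gdf15 was higher in all 3 I-PpoI libraries than in any control, by 1.98-fold between group means, and Mmp2 was lower in all 3, by 2.24-fold. Of all genes tested, 7.65% were higher and 9.76% lower in I-PpoI without overlap on this scale. Scaled by strand-clear genes only, Gdf15 and Lmnb1 were higher in all 3 I-PpoI libraries, as were 9.65% of all genes tested, while Mmp2 overlapped between the groups, and 6.03% of all genes were lower without overlap. After scaling by all genes, Cdkn2b, Lmnb1 and Timp1 overlapped between the groups, Glb1 was low in 1 I-PpoI library and high in the other two, and Cdkn2a, Il6, Ccl2 and Cxcl1 were near the detection limit. The test was limma on log2(scaled FPKM + 1) over the 14962 genes whose mean FPKM was 1 or more, 6 of the 10 genes among them, at a threshold of 0.05 after Benjamini-Hochberg adjustment. It called 0 genes, so percent called was 0, and 1373 genes had an unadjusted p under 0.05 against 528 with limma-voom, which also called 0. Leaving out I-PpoI mouse 3, which keeps only the shallow libraries with fragments on the wrong strand, raised the count of genes called to 5729 with none of the 10 among them. The scale of the log2 fold changes, log2(scaled FPKM + 1), understates the change of low genes.

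**Figure D1:**
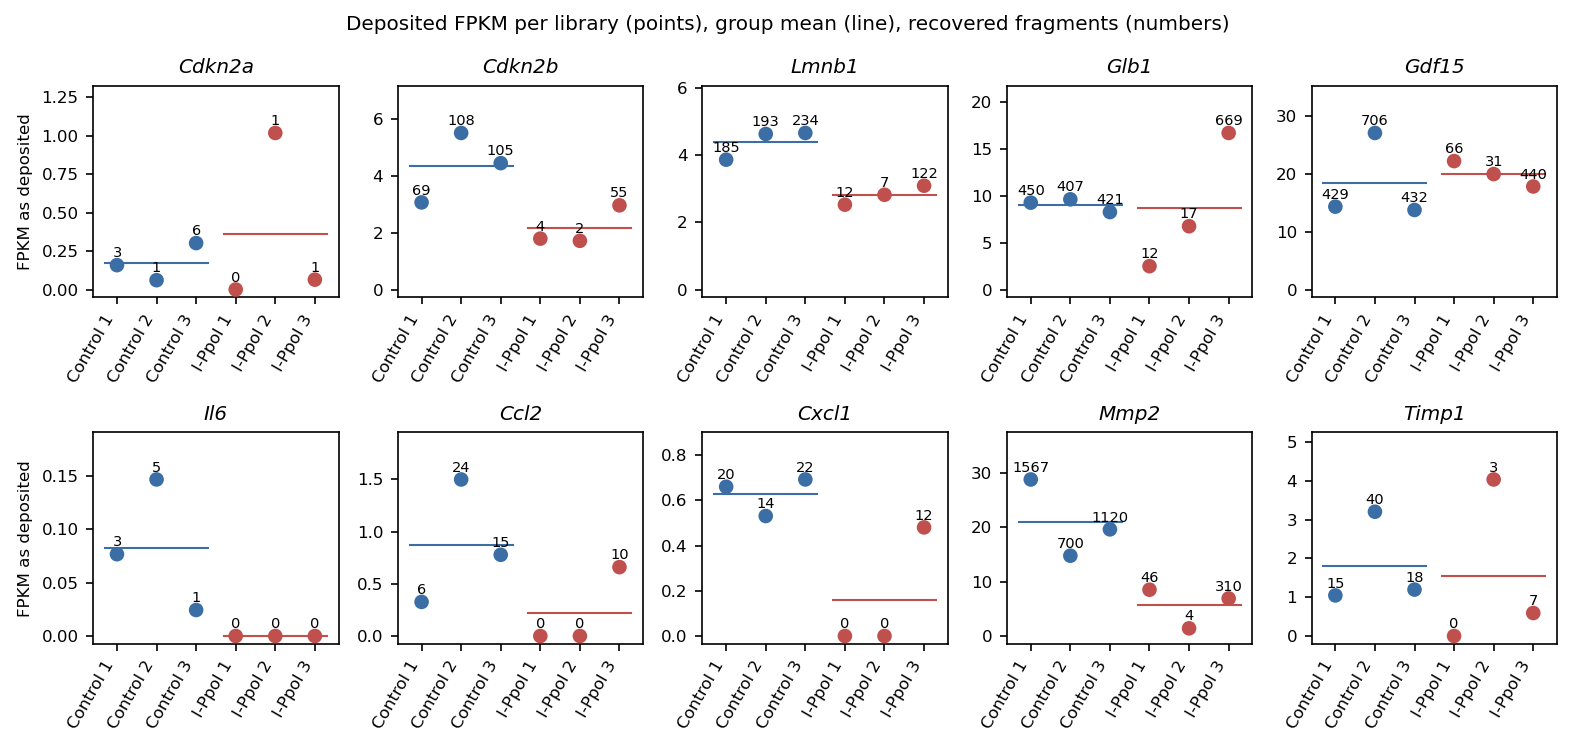
Deposited FPKM of the 10 genes in each of the 6 libraries (vertical axes, linear), with points for libraries, horizontal lines for group means, and numbers for the fragments behind each point. The points of I-PpoI mice 1 and 2 rest on 66 fragments or fewer for every gene.

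Cdkn2a (ENSMUSG00000044303, GRCm38 chr4:89274471-89294653, minus strand) encodes both p16Ink4a, an inhibitor of CDK4 and CDK6, and p19Arf, which stabilises p53. Its transcripts start at separate first exons, and RefSeq places promoter windows at chr4:89282143-89282442 and chr4:89294570-89294869, so that a single row of the matrix sums transcripts of both proteins. Deposited FPKM was 0.158, 0.0606 and 0.302 in control mice 1 to 3, from 3, 1 and 6 fragments. In I-PpoI mice 1 to 3 it was 0, 1.02 and 0.0640, from 0, 1 and 1 fragments. The highest value, in I-PpoI mouse 2, was a single fragment in the shallowest library, and the groups overlapped (two-sided exact permutation test of scaled FPKM, p = 0.9; the smallest p that 3 against 3 libraries allows is 0.1). In I-PpoI mouse 1 a count of 0 allows up to 1.61 FPKM at 3 fragments, above every control value. A drop, or a rise that stayed below that level, was therefore not detectable in that library. Of 21923 protein-coding genes, 37.0% had a lower mean FPKM in controls.

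Cdkn2b (ENSMUSG00000073802, chr4:89306299-89311039, minus strand), the neighbouring gene, encodes p15Ink4b, another inhibitor of CDK4 and CDK6. Its deposited FPKM was 3.07, 5.52 and 4.46 in control mice 1 to 3 and 1.79, 1.72 and 2.97 in I-PpoI mice 1 to 3, so all 3 I-PpoI values lay below the controls. On the deposited scale this held for 45.1% of all genes tested, Lmnb1 and Mmp2 included. The values of I-PpoI mice 1 and 2 rested on 4 and 2 fragments. Once scaled, the controls were at 2.11, 4.15 and 3.47 and the I-PpoI mice at 2.08, 2.91 and 3.57, and the groups overlapped. The log2 fold change was -0.13 (SE 0.323, 95% interval -0.92 to 0.67, limma adjusted p = 0.825). As a share of the fragments of all strand-clear tested genes, in fragments per 1000000 (ppm), Cdkn2b was at 13.9, 26.9 and 22.2 in controls and 16.8, 25.4 and 24.0 in I-PpoI mice, with an exact 95% binomial interval of 3.08 to 91.8 in I-PpoI mouse 2. The position of Cdkn2b below the controls was thus present on the deposited scale and absent on the others.

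Lmnb1 (ENSMUSG00000024590) encodes lamin B1, a filament protein of the nuclear lamina that is lost from many senescent cells. Deposited FPKM was 3.87, 4.63 and 4.66 in control mice 1 to 3, from 185, 193 and 234 fragments, and 2.53, 2.82 and 3.09 in I-PpoI mice 1 to 3, from 12, 7 and 122. On this scale the I-PpoI libraries were all below the controls, at a log2 fold change of -0.50. Scaled FPKM was 2.66, 3.48 and 3.63 in controls and 2.93, 4.79 and 3.72 in I-PpoI mice, which overlapped. The log2 fold change was then 0.17 (SE 0.278, 95% interval -0.51 to 0.85, limma adjusted p = 0.729), and the sign of Lmnb1 therefore depended on the scaling. As ppm of strand-clear fragments, the controls were at 37.3, 48.0 and 49.4 and I-PpoI mice at 50.3, 89.0 and 53.1. I-PpoI mouse 3, the deep library, was at 53.1 with an exact 95% binomial interval of 44.1 to 63.4, which included the value of control mice 2 and 3. Lmnb1 did not overlap between the groups in ppm, with I-PpoI mice 1 and 2 resting on 12 and 7 fragments. The share of all genes without overlap was not computed in ppm. When scaled by strand-clear genes, 9.65% of all genes tested were higher in I-PpoI without overlap.

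Glb1 (ENSMUSG00000045594, chr9:114401076-114474898, plus strand) encodes lysosomal beta-galactosidase, the enzyme behind the common histochemical stain for senescence. The controls were close together, at 9.26, 9.61 and 8.26 FPKM in mice 1 to 3. The I-PpoI mice were at 2.49, 6.75 and 16.7, from 12, 17 and 669 fragments. I-PpoI mouse 1 was the lowest of the 6 libraries and I-PpoI mouse 3 the highest, so the I-PpoI group spanned the controls on both sides. As ppm of strand-clear fragments, the controls held 88.9 to 101. I-PpoI mouse 1 was at 50.3 (exact 95% binomial interval 26.0 to 87.9), mouse 2 at 216 (126 to 346) and mouse 3 at 291 (270 to 314), and none of these intervals reached the control range. These intervals cover counting error only. The log2 fold change was 0.39 (SE 0.626, 95% interval -1.14 to 1.93, limma adjusted p = 0.716). With I-PpoI mouse 3 as the only I-PpoI library it was 1.51. With I-PpoI mouse 1, at 12 fragments, as the only one, the comparison restricted to males, it was -0.99. In each of these fits the lone library was assumed to vary like the controls. The summed scaled level of 10 proximal tubule markers, the epithelium next to peritubular capillaries, had the same order within the I-PpoI group: 371 in mouse 1, 1315 in mouse 2 and 2129 in mouse 3, against 541, 1133 and 715 in controls. Single markers held much of the control sums. As deposited, Aqp1 held 406.6 of 786.7 FPKM in control mouse 1 and 603.6 of 918.5 in control mouse 3. Kap held 755.2 of 1509 FPKM in control mouse 2. The part of tubule RNA in the Glb1 values was not tested. In bulk RNA from sorted cells, a change in the number of cells of a type and a change in RNA per cell cannot be told apart.

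Gdf15 (ENSMUSG00000038508, chr8:70629393-70632456, minus strand) encodes growth differentiation factor 15, a stress-induced secreted protein that acts on the hindbrain receptor GFRAL and is a known target of p53 and of the integrated stress response. Deposited FPKM was 14.3, 27.1 and 13.8 in control mice 1 to 3, from 429, 706 and 432 fragments, and 22.2, 20.0 and 17.8 in I-PpoI mice 1 to 3, from 66, 31 and 440. On this scale control mouse 2 was the highest library and the groups overlapped. Scaled FPKM was 9.87, 20.3 and 10.7 in controls and 25.8, 33.9 and 21.4 in I-PpoI mice. All 3 I-PpoI libraries were then above the controls, the nearest pair being I-PpoI mouse 3 and control mouse 2. Group means were 13.6 ± 5.82 in control and 27.0 ± 6.32 in I-PpoI (SD, n = 3 each). On the deposited scale, 2.24% of all genes tested were higher in I-PpoI without overlap, and none of the 10 was.

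The log2 fold change of Gdf15 was 0.98 (SE 0.353, 95% interval 0.12 to 1.85), with a limma adjusted p = 0.316 over all genes and an unadjusted p of 0.0318, so it did not pass the test. Over the settings tried it ranged from 0.023, with I-PpoI mice 1 and 2 left out and FPKM as deposited, to 1.28, with strand-clear genes for scaling, and was above 0 in each. As ppm of strand-clear fragments, Gdf15 was at 86.5, 176 and 91.2 in control mice 1 to 3. It was at 277 (exact 95% binomial interval 214 to 352) in I-PpoI mouse 1, 394 (268 to 559) in mouse 2 and 192 (174 to 210) in mouse 3. The interval of I-PpoI mouse 3 included the value of control mouse 2, while those of I-PpoI mice 1 and 2 did not. With I-PpoI mouse 3 as the only I-PpoI library, the log2 fold change was 0.72 (limma adjusted p = 0.999).

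**Figure D2:**
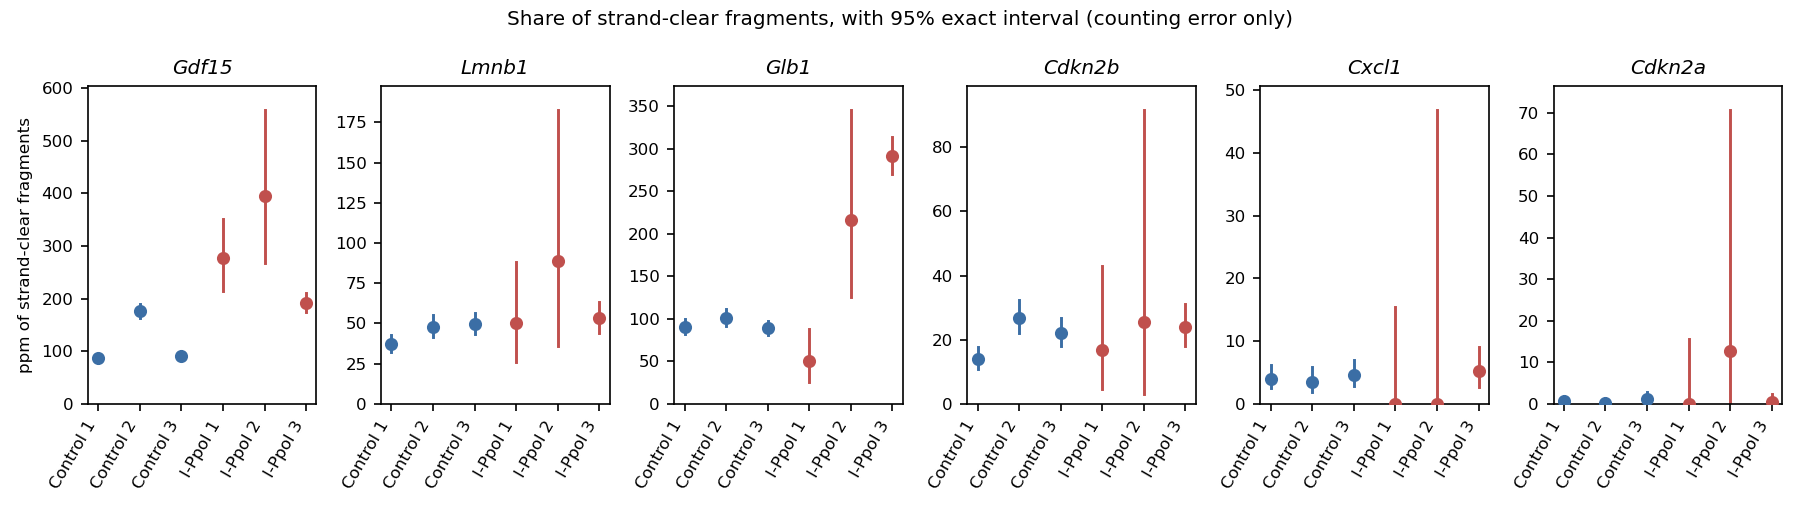
Fragments of the 6 strand-clear genes in ppm of strand-clear fragments (vertical axes, linear from 0) in each library, with exact 95% binomial intervals as vertical lines. Gdf15 lies at 192 or more in I-PpoI and at 176 or less in control, and the Glb1 points of the I-PpoI libraries lie on both sides of the controls.

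Il6, Ccl2 and Cxcl1 encode secreted signals of the NF-kappaB programme: interleukin 6, which signals through Il6ra and Il6st, the monocyte chemoattractant CCL2, and the neutrophil chemoattractant CXCL1. The promoter windows of Il6 and Cxcl1 are shown because they were the only windows among these genes to hold the searched NF-kappaB core letters, and because both genes had their few fragments in the deep libraries. Each window is from RefSeq on GRCm38.p6, 300 bases on the plus strand, with 250 before the transcript start and 50 after. Capitals mark matches, on either strand, to the NF-kappaB core GGANTTTCC (both windows) and to AP-1, TGANTCA (the Il6 window).
Il6 chr5:30012864-30013163: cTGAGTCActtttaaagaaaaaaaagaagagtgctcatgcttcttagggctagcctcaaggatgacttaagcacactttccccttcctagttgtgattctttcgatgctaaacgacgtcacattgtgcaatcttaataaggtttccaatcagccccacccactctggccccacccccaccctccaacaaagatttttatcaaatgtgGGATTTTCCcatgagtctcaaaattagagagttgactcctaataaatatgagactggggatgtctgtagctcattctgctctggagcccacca
Cxcl1 chr5:90890995-90891294: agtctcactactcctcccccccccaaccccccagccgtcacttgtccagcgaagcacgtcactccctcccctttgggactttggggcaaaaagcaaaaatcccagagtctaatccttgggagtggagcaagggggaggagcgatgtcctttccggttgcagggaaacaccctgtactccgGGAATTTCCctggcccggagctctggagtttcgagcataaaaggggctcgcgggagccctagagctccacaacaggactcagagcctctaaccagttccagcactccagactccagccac

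The NF-kappaB core lay at bases 208 to 216 of the Il6 window and at bases 181 to 189 of the Cxcl1 window, and 1.25% of 32851 promoter windows of this length held it. The AP-1 letters lay at bases 2 to 8 of the Il6 window, and also at bases 198 to 204 of the Glb1 window, against 7.81% of windows. The matches did not overlap each other. RefSeq windows matched 7 of the 10 genes, namely Cdkn2a and Gdf15 with 2 windows each, and Cdkn2b, Il6, Cxcl1, Glb1 and Timp1. Neither the amino acid response element letters TGATGNAA (3.97% of windows) nor TATAAA (13.6%) occurred in any of them. A match describes these letters only, and so does the lack of one.

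Il6 (ENSMUSG00000025746, chr5:30013114-30019981, plus strand) was at 0.0765, 0.146 and 0.0243 FPKM in control mice 1 to 3, from 3, 5 and 1 fragments. It was listed at 0 in all 3 I-PpoI libraries, and so lay below the controls without overlap under each scaling. Of all genes tested, 45.1% did so as deposited, 9.76% scaled by all genes and 6.03% scaled by strand-clear genes. At the mean control FPKM, I-PpoI mice 1, 2 and 3 would have held 0.318, 0.167 and 2.66 fragments. The part of depth in these zeros was not tested. In I-PpoI mouse 3 a count of 0 allows up to 0.0927 FPKM, which lies above the control mean of 0.0824. The exact two-sided permutation test gave p = 0.1, the smallest p this design can give. Interleukin 6 transcripts were thus scarce in the controls and in I-PpoI mouse 3, and could not be judged in I-PpoI mice 1 and 2, where 3 fragments correspond to 0.777 and 1.48 FPKM.

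Ccl2 (ENSMUSG00000035385, chr11:82035571-82037453, plus strand) was at 0.326, 1.50 and 0.778 FPKM in control mice 1 to 3, from 6, 24 and 15 fragments. I-PpoI mice 1 and 2 held 0 fragments and I-PpoI mouse 3 was at 0.659 FPKM, from 10. The deep I-PpoI library was therefore inside the control range. Cxcl1 (ENSMUSG00000029380, chr5:90891241-90893115, plus strand) was at 0.660, 0.531 and 0.692 FPKM in controls, at 0 in I-PpoI mice 1 and 2, and at 0.480 in I-PpoI mouse 3, from 12 fragments. On the deposited scale that put Cxcl1 below all controls. Against strand-clear fragments, Cxcl1 was at 4.03, 3.49 and 4.65 ppm in controls and 5.23 in I-PpoI mouse 3, with an exact 95% binomial interval of 2.70 to 9.13 that covers all 3 controls. Counts of 0 allow up to 12.6 and 38.1 ppm in I-PpoI mice 1 and 2, so neither library could show a drop, or a rise below those levels. Exact two-sided permutation tests of scaled FPKM gave p = 0.3 for Ccl2 and p = 0.4 for Cxcl1.

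Mmp2 (ENSMUSG00000031740, chr8:92827291-92853420, plus strand) encodes gelatinase A, a secreted protease of type IV collagen, and had the highest control level per length of the 10 genes. Deposited FPKM was 28.8, 14.8 and 19.6 in control mice 1 to 3, from 1567, 700 and 1120 fragments. In I-PpoI mice 1 to 3 it was 8.51, 1.42 and 6.90, from 46, 4 and 310. All 3 I-PpoI libraries were below the lowest control. Scaled FPKM was 19.8, 11.1 and 15.3 in controls and 9.88, 2.40 and 8.30 in I-PpoI mice, again without overlap when scaled by all genes, with group means of 15.4 ± 4.36 and 6.86 ± 3.94 (SD, n = 3 each). Scaled by strand-clear genes, the controls were at 17.7, 9.97 and 13.5 and the I-PpoI mice at 12.0, 2.99 and 7.40, and the groups overlapped through I-PpoI mouse 1 and control mouse 2.

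The log2 fold change of Mmp2 was -1.19 (SE 0.51, 95% interval -2.44 to 0.061), with a limma adjusted p = 0.316 and an unadjusted p of 0.0589. It was below 0 under every setting tried, from -1.91 on the deposited scale to -0.54 in the libraries of males. With I-PpoI mouse 3 as the only I-PpoI library it was -0.77 (limma adjusted p = 0.83). Mmp2 is not strand-clear: an antisense gene, Gm45472, lies just past its last exon and took 9 and 6 fragments in I-PpoI mice 1 and 2, 1, 0 and 2 in the controls, and 0 in I-PpoI mouse 3. The part of wrong-strand fragments in the Mmp2 values of those 2 libraries was not tested. In I-PpoI mouse 3, with 310 fragments on the annotated strand, Mmp2 was also below every control. I-PpoI mouse 3 scaled with the controls alone lay above all of them for Gdf15, Lmnb1 and Glb1, as for 24.7% of all genes tested, and below for Mmp2, as for 24.9%. Among cell types that share Mmp2 with endothelium, the summed scaled level of 7 fibroblast markers was 12.7, 5.41 and 7.94 in controls and 8.30, 17.5 and 19.7 in I-PpoI mice. That of 7 mural cell markers was 656, 415 and 453 in controls and 445, 483 and 420 in I-PpoI mice, with control mouse 1 highest for both the mural markers and Mmp2. The part of either cell type in Mmp2 was not tested.

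Timp1 (ENSMUSG00000001131, chrX:20870166-20874735, plus strand) encodes a secreted inhibitor of matrix metalloproteinases. Deposited FPKM was 1.05, 3.20 and 1.20 in control mice 1 to 3, from 15, 40 and 18 fragments, and 0, 4.03 and 0.592 in I-PpoI mice 1 to 3, from 0, 3 and 7. The highest and the lowest of the 6 values were both from shallow I-PpoI libraries. The log2 fold change was 0.083 (SE 0.818, 95% interval -1.92 to 2.09, limma adjusted p = 0.956), and its sign changed with the scaling and the pseudocount. Timp1 lies inside an intron of Syn1, a neuronal gene on the opposite strand, which held 19 and 4 fragments in I-PpoI mice 1 and 2, 6 to 9 in the controls, and 0 in I-PpoI mouse 3. In I-PpoI mouse 1 a count of 0 allows up to 2.12 FPKM, above control mice 1 and 3. The ratio of protease to inhibitor could therefore not be followed in that library.

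**Figure D3:**
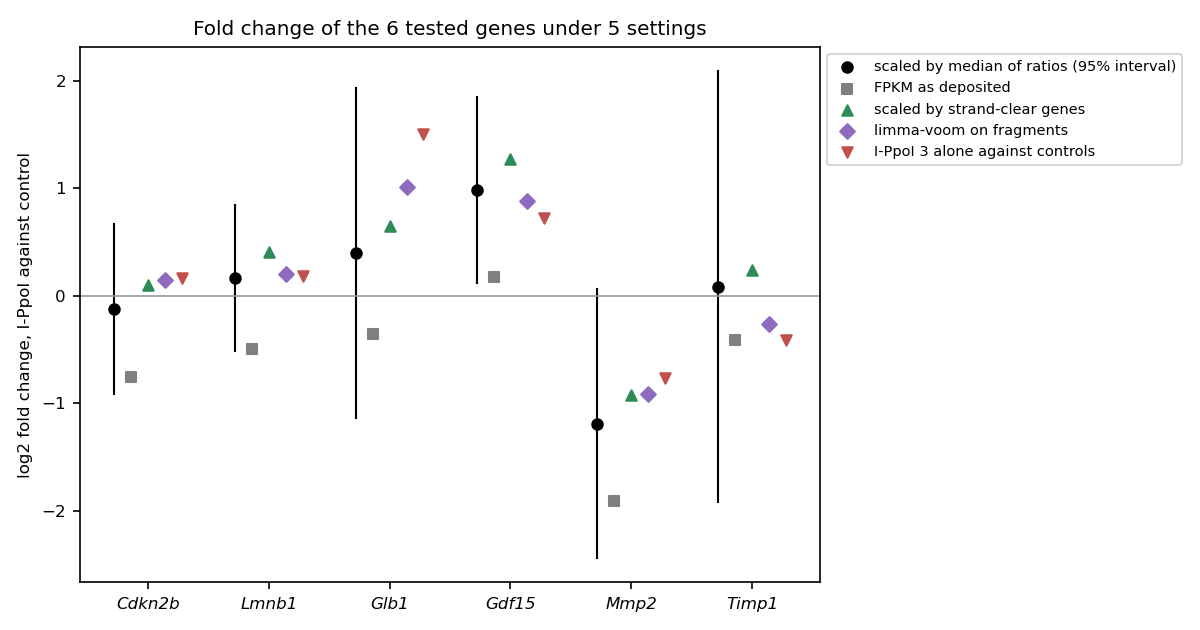
Log2 fold changes of I-PpoI against control (vertical axis) for the 6 tested genes under 5 settings, with 95% intervals on the values scaled by the median of ratios. Gdf15 lies above 0 and Mmp2 below 0 under all 5, while Cdkn2b, Lmnb1, Glb1 and Timp1 have points on both sides.

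The order of the 10 genes by level per length in the control libraries was Mmp2, Gdf15, Glb1, Lmnb1, Cdkn2b, Timp1, Ccl2, Cxcl1, Cdkn2a and Il6. Control means were 21.0 ± 7.12 FPKM for Mmp2, 18.4 ± 7.53 for Gdf15, 9.04 ± 0.704 for Glb1, 4.39 ± 0.451 for Lmnb1, 4.35 ± 1.23 for Cdkn2b and 1.81 ± 1.20 for Timp1 (SD, n = 3 each). They were 0.868 ± 0.591 for Ccl2, 0.628 ± 0.0856 for Cxcl1, 0.174 ± 0.121 for Cdkn2a and 0.0824 ± 0.0612 for Il6. Neighbours in this order had overlapping ranges of control values, except that all values of Gdf15 lay above Glb1, Glb1 above Lmnb1 and Cxcl1 above Cdkn2a. Within each control library, Cdkn2b was also above Timp1 and Timp1 above Ccl2, though their ranges overlapped. Mmp2 was above 90.1% and Gdf15 above 88.5% of protein-coding genes, against 33.5% for Il6. The matrix protease and the stress cytokine were thus abundant in the control preparations, and the classical inflammatory members of the secretory phenotype were not. These preparations also held markers of other cell types, whose part in these levels was not tested.

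Related genes were read from 9 lists, and 0 genes of any list passed the test in either direction, against 0% of all genes. Of 14 tested cell cycle inhibitors and senescence regulators, 7 had a fold change above 0 and 7 below. Their median log2 fold change was -0.13 against 0.015 over all genes. The 2 strand-clear ones had a median of -0.30 when scaled by strand-clear genes, against -0.035 over the 3654 strand-clear genes tested. Cdkn1a, which encodes the p53-induced inhibitor p21, was at 22.0 ± 5.23 FPKM in control and 9.77 ± 4.95 in I-PpoI (SD, n = 3 each), a scaled log2 fold change of -0.41 (limma adjusted p = 0.529). Trp53 was at a scaled log2 fold change of -0.26 (limma adjusted p = 0.592). Neither Cdkn1a nor Trp53 is strand-clear. In I-PpoI mice 1 and 2, Cdkn1a rested on 57 and 14 fragments and Trp53 on 67 and 15. Scaled Cdkn1a in I-PpoI mouse 3 was 17.6, inside the control range of 11.3 to 20.8. The pocket proteins Rb1 and Rbl2, the members of smallest p, were at log2 fold changes of 1.32 and 1.00, but both overlap exons of other genes on the opposite strand. Scaled FPKM of Rb1 was 31.1 and 31.3 in I-PpoI mice 1 and 2 and 6.69 in mouse 3, inside the control range of 5.68 to 8.15. That of Rbl2 was 15.5 and 16.6 in I-PpoI mice 1 and 2 and 7.13 in mouse 3, against 4.38 to 6.60 in controls. All 3 I-PpoI libraries thus lay above the controls for Rbl2, as for 7.65% of all genes tested. As deposited, Rbl2 in I-PpoI mouse 3 was at 5.93 FPKM, inside the control range of 5.84 to 8.99. The part of wrong-strand fragments in these 2 genes was not tested.

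The 12 other genes of the nuclear lamina and inner nuclear membrane were evenly divided, 6 above and 6 below 0, with a median of -0.020. The single strand-clear one, Syne2, named after its value was seen, was at 0.30 when scaled by strand-clear genes. Lbr, the lamin B receptor that tethers heterochromatin to the envelope, was at 19.9 ± 1.70 FPKM in control and 6.30 ± 2.65 in I-PpoI (SD, n = 3 each). Its scaled log2 fold change was -0.83 (limma adjusted p = 0.316). Tmpo, which encodes the lamina-associated polypeptide 2 family, was at -0.59 on the same scale. Lbr shares exon sequence with Dnah14 on the opposite strand, and Tmpo with Gm26765. Of 16 genes for lysosomal enzymes and membrane proteins besides Glb1, 5 lay above and 11 below 0, with a median of -0.15, and the 4 strand-clear ones had a median of 0.31 when scaled by strand-clear genes. Ctsa, which encodes cathepsin A and had the smallest p of that list, reached a scaled FPKM of 367 in I-PpoI mouse 1 and 267 in mouse 2, with 40.7 in mouse 3, against 23.3 to 26.7 in controls. It shares exon sequence with Pltp and Neurl2 on the opposite strand.

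Of 23 other cytokines and chemokines of senescent cells, 13 were tested, 7 above and 6 below 0, with a median of 0.11. The 7 strand-clear ones had a median of 0.29 when scaled by strand-clear genes. The endothelial and stromal chemokine Cxcl12, which is strand-clear, was at 30.8, 15.5 and 24.0 FPKM in control mice 1 to 3 and 7.25, 4.23 and 10.7 in I-PpoI mice 1 to 3. These groups did not overlap as deposited, which held for 45.1% of all genes, and overlapped once scaled, with I-PpoI mouse 3 at 12.8 and control mouse 2 at 11.6. The scaled log2 fold change was -0.79 (limma adjusted p = 0.316). Mif, also strand-clear, was at 53.3, 110 and 48.9 FPKM in controls and 76.2, 143 and 59.3 in I-PpoI mice, with a scaled log2 fold change of 1.22 (limma adjusted p = 0.316). Of 8 listed cytokine and chemokine receptors, 4 were tested, 1 above and 3 below 0, with a median of -0.15. Il6st, the shared signalling subunit gp130, was at a log2 fold change of -0.48 (limma adjusted p = 0.405). As the single strand-clear gene of the 4, it was at -0.19 when scaled by strand-clear genes. Ackr4 was at 21.0 FPKM in I-PpoI mouse 1, 35.9 in mouse 2 and 0.307 in mouse 3, against 0.437 to 0.621 in controls, and it shares exon sequence with Acad11 on the opposite strand.

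Matrix proteases and their inhibitors other than Mmp2 and Timp1 had 4 of 14 tested genes above 0 and 10 below, with a median of -0.28. Its 9 strand-clear genes, scaled by strand-clear genes, had a median of 0.027, against -0.035 over the 3654 strand-clear genes tested. Mmp14, a membrane protease that activates pro-MMP2, was at 14.2, 16.1 and 10.9 FPKM in control mice 1 to 3 and at 5.02, 3.20 and 5.43 in I-PpoI mice 1 to 3. Its scaled log2 fold change was -0.67 (limma adjusted p = 0.316), and Gm24424 lies within 5 kb of its exons on the opposite strand. The sheddase gene Adam10, which is strand-clear, was at 54.5, 38.7 and 53.3 FPKM in controls and at 11.0, 4.37 and 23.7 in I-PpoI mice, a scaled log2 fold change of -1.28 (limma adjusted p = 0.316). Among secreted growth factors and binding proteins, 4 of 14 were above 0 and 10 below, with a median of -0.17, and the 9 strand-clear ones had a median of 0.11. Igfbp3 was at 77.1 ± 3.26 FPKM in control and 27.9 ± 8.60 in I-PpoI (SD, n = 3 each), and Igfbp7 at 653 ± 177 and 872 ± 315, all as deposited. Their scaled log2 fold changes were -0.64 and 1.23 (limma adjusted p = 0.316 for both). On the opposite strand, Igfbp3 has Igfbp1 within 5 kb, and Igfbp7 shares exon sequence with Polr2b.

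Upstream regulators gave no common direction either. Of 14 tested NF-kappaB and C/EBP genes, 7 were above and 7 below 0, with a median of 0.098, and of 0.19 over the 5 strand-clear ones scaled by strand-clear genes. Nfkb2 and Cebpd were at log2 fold changes of 0.99 and 1.65. Nfkb2 shares exon sequence with Psd on the opposite strand, and Cebpd with Spidr. In I-PpoI mouse 3 both were inside the control range after scaling. Nfkb2 was at 10.3 against 8.87 to 10.4 scaled FPKM and Cebpd at 4.91 against 4.09 to 6.97. The integrated stress response, which induces Gdf15 through ATF4 and CHOP, had 6 of 10 genes above 0 and 4 below, with a median of 0.34. Its 5 strand-clear genes had a median of 0.73 when scaled by strand-clear genes, against -0.035 over the 3654 strand-clear genes tested. Atf4 itself was at 59.3, 75.1 and 56.4 FPKM in control mice 1 to 3. In I-PpoI mice 1 to 3 it was at 22.0, 20.8 and 29.0. Its scaled log2 fold change was -0.55 (limma adjusted p = 0.316), and Rps19bp1 lies within 5 kb of its exons on the opposite strand. Sesn2, a stress-induced regulator of mTORC1 signalling, was at 2.40, 2.80 and 3.60 FPKM in controls and 2.33, 3.44 and 4.32 in I-PpoI mice, a scaled log2 fold change of 0.77 (limma adjusted p = 0.316).

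**Figure D4:**
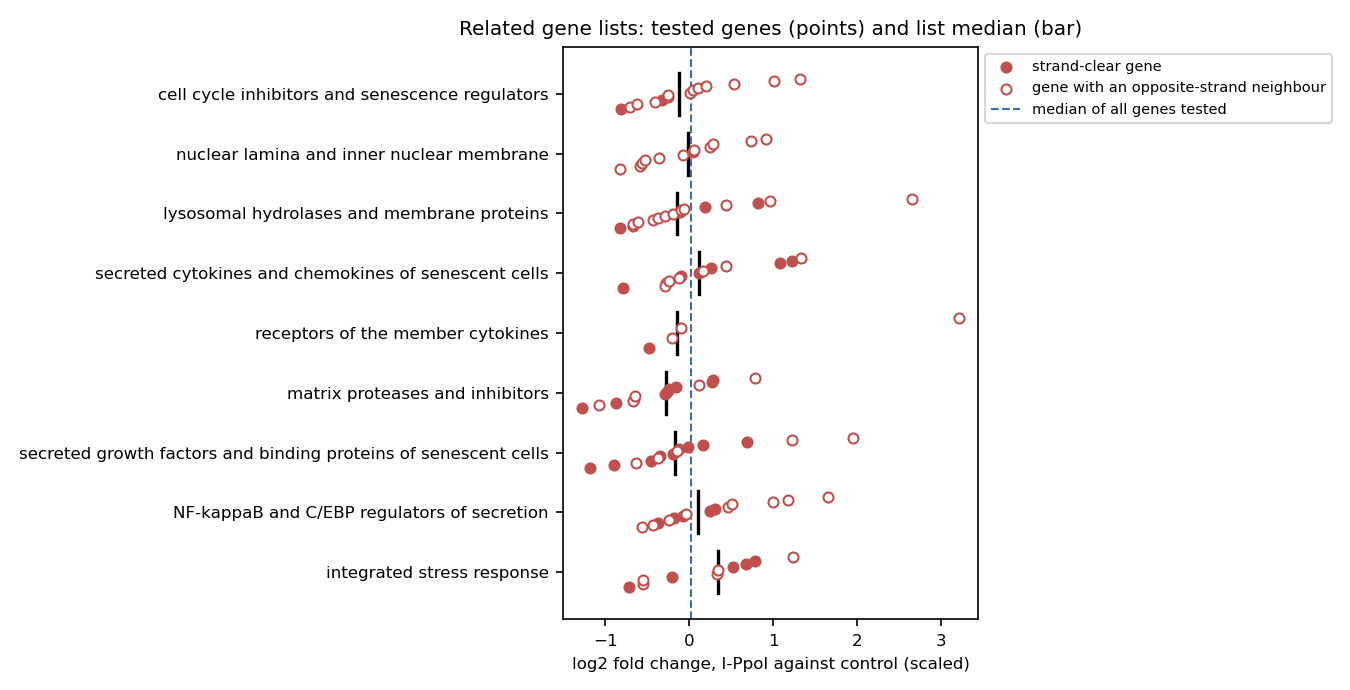
Scaled log2 fold changes (horizontal axis) of the tested genes of 9 related lists (rows), with filled points for strand-clear genes, open points for genes with an opposite-strand neighbour, bars for list medians and a dashed line for the median of all genes at 0.015. List medians lie between -0.28 and 0.34, and the points farthest to the right, Ackr4 and Ctsa, are open.

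Markers of other cells in the preparation also differed between libraries. Macrophage and monocyte markers, whose cells can make Ccl2 and Gdf15, had a summed scaled level of 26.0, 147 and 176 in control mice 1 to 3 and 110, 437 and 282 in I-PpoI mice 1 to 3, with all 10 detected in every library. Lymphocyte markers were at 26.0 to 46.2 in controls and 16.1 to 19.2 in I-PpoI, without overlap. Of all single genes tested, 9.76% were lower in I-PpoI without overlap on this scale. The lymphocyte sums of I-PpoI mice 1 and 2 rested on 44 and 14 fragments. The 6 neutrophil markers held few fragments: 9, 9 and 20 in control mice 1 to 3, 0 in the shallow I-PpoI mice 1 and 2, and 23 in mouse 3. Their summed scaled level was 0.734, 0.718 and 1.52 in controls and 3.80 in I-PpoI mouse 3, where S100a9 held 19 fragments. Ngp was at 0 in every library, and Ly6g had 1 fragment in all. Endothelial markers summed to 1916, 2285 and 2018 in controls and 2276, 1125 and 1518 in I-PpoI mice, so that the lowest endothelial levels were those of the mice with the highest tubule and macrophage levels. The part of any of these in the 10 genes was not tested.

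**Figure D5:**
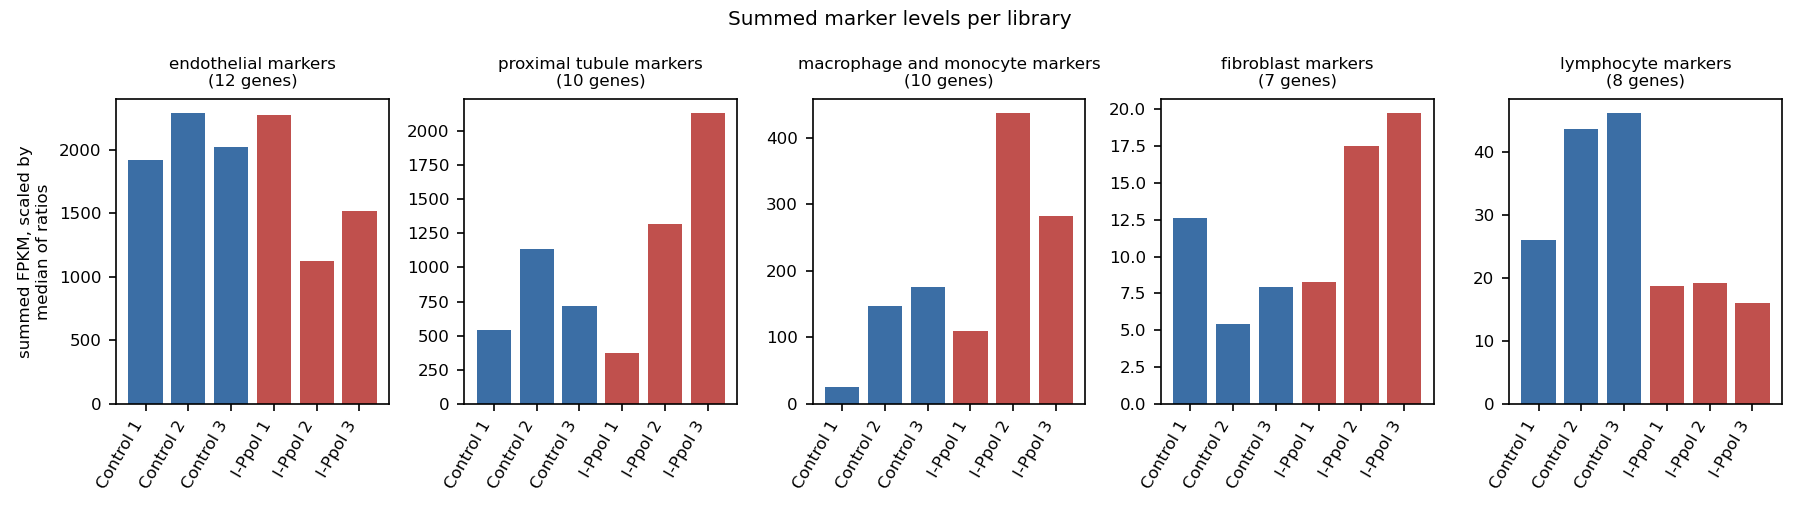
Summed scaled FPKM of marker genes (vertical axes, linear from 0) of 5 cell types in each library. Endothelial markers are lowest in I-PpoI mice 2 and 3, at 1125 and 1518, where proximal tubule and macrophage markers are highest. Lymphocyte markers are lower in all 3 I-PpoI libraries, as were 9.76% of single genes tested, and rest on 44 and 14 fragments in I-PpoI mice 1 and 2.

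The genes with profiles most like those of the 6 tested genes were found by the root mean square difference of centred log2(scaled FPKM + 1) over the 6 libraries, among 11350 nuclear protein-coding genes. For Glb1 the closest was Acadm, a mitochondrial acyl-CoA dehydrogenase, at a difference of 0.0932 against an SD of 0.748 for Glb1 itself, followed by Galnt11 at 0.127. Acadm had the same order as Glb1 within I-PpoI, at 5.26, 14.3 and 30.6 FPKM in mice 1 to 3. The closest to Gdf15 were Tmem176a (0.160) and Mrpl34 (0.176). Mmp2 was closest to Megf6 (0.130) and Chst3 (0.197), both at 0 FPKM in I-PpoI mouse 2, its own lowest library. Lmnb1 was closest to the cell cycle phosphatase gene Cdc25a (0.0612) and to Mocs3 (0.0709), and Cdkn2b to Ccni (0.0807) and Mob3c (0.108). Timp1 was equally close to Fhit and Lefty1 (0.165 each). These are descriptions over 6 libraries that share depth and strand differences.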

How the data were processed

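The authors deposited 1 table of FPKM per gene for all 6 libraries, from paired-end sequencing of 100 cycles per the labels' protocols. DESeq2 1.28.13 and the builds mm10 and GRCm38 are named in the submitters' processing notes. Which aligner and counting tool were used, and with which strand setting, is not given in the sources used here. Deposited FPKM multiplied by GENCODE M21 exon length gave whole fragments (within 0.05) for 98.5% to 98.6% of values under 1000 fragments and for all values of the 10 genes, which gave the depth of each library. Gene coordinates matched GENCODE M21 for 54821 of 55487 genes.

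FPKM is not a count, so log2(FPKM / size factor + 1) was tested with limma 3.58.1 (R 4.3.3, variance trend, moderated test), for genes whose mean FPKM was 1 or more, in all 6 libraries, no covariate, Benjamini-Hochberg adjustment over all genes tested and a threshold of 0.05. Size factors were medians of ratios to the geometric mean. Genes under the filter got an exact two-sided permutation test. Floors are 3 fragments and shares have exact (Clopper-Pearson) 95% binomial intervals. Both cover counting error only. The fit was tested on data simulated from the control profile at the depths of the 6 libraries, without their strand and composition differences. That simulation cannot show how the fit behaves with those differences. Labels give 1 mouse per library, and no 2 libraries were identical. No 2 libraries of the same group were within counting noise of each other. The 10 genes, the lists, the markers and the tests were chosen with earlier results of these data known. Beyond the 10 genes, the text names the 2 genes of smallest p of each list and the 2 nearest profiles of each tested gene, with Cdkn1a, Trp53 and Syn1 named as checks. One gene that this rule selects is not reported here. Alternatives covered scaling, pseudocount, filter, model, replicate block and libraries left out. Leaving out I-PpoI mice 1 and 2 on the deposited scale, and group overlap under strand-clear scaling, were added after seeing the data.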

Additional observations from a re-analysis of the deposited data

How the results depend on the processing

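The count of genes past the threshold was 0 under every change of scaling, pseudocount, filter and model (limma-voom). It was 0 to 5729 on leaving out 1 library at a time, 5729 (3634 higher, 2095 lower) without I-PpoI mouse 3 and 0 otherwise. It was 55 (53 higher, 2 lower) without I-PpoI mice 1 and 2, 16 (14 higher, 2 lower) in the same fit on deposited FPKM, and 6008 (3947 higher, 2061 lower) in males only. Of the 10 genes, the count was 0 except 1 in males only, where Glb1 was lower. The number of tested genes whose groups did not overlap was 2 after scaling, 2 when scaled by strand-clear genes (Gdf15 and Lmnb1 in place of Gdf15 and Mmp2), 3 on the deposited scale and 4 (3 higher, 1 lower) with both shallow libraries (I-PpoI mice 1 and 2) left out. In that last setting, 24.7% of all genes lay above and 24.9% below the controls.

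Gdf15 and Mmp2 kept their sign in every setting. Cdkn2b turned to 0.10 with strand-clear scaling or strand-clear genes only, 0.14 with limma-voom and 0.17 without I-PpoI mice 1 and 2, with -0.34 to 0.030 on leaving out 1 library. Lmnb1 turned to -0.50 as deposited, -0.093 in males only and -0.39 with both shallow libraries left out on the deposited scale. Glb1 turned to -0.36 as deposited and -0.99 in males only, with -0.16 to 1.09 on leaving out 1 library. Timp1 turned to -0.41 as deposited, -0.64 and -0.063 with pseudocounts of 0.1 and 0.5, -0.27 with limma-voom, -0.41 without I-PpoI mice 1 and 2, -1.32 in males only and -0.74 with both shallow libraries left out on the deposited scale, with -0.83 to 0.72 on leaving out 1 library. The cause of these turns was not tested. Strand-clear scaling moved the median log2 fold change of all genes to 0.26.

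With the replicate number as a block, 0 genes and 0 of the 10 passed. The labels do not tie equal numbers to a shared litter or day. Same-numbered libraries had correlated deviations of 0.142, 0.0634 and 0.038 over genes, and each of the 6 libraries correlated best with its own number, a hint from the data only. Where 1 I-PpoI library stood alone, it was assumed to vary like the controls. Depth limits I-PpoI mice 1 and 2, in which Cdkn2a, Il6, Ccl2, Cxcl1 and Timp1 held 3 fragments or fewer each.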
